A study of Mus musculus with 24 samples.

Results

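The Notch pathway was followed in splenic dendritic cells (DCs) of mouse pups through 10 of its genes, the receptors Notch1, Notch2 and Notch4, the ligands Jag1, Jag2 and Dll1, the DNA-binding factor Rbpj, and the target genes Hes1, Hey1 and Dtx1. The genes were chosen by name, with earlier results of these data known. Every probe set whose only gene symbol was one of these names was taken, which gave 16 probe sets of 22626 tested, and 10 genes of the 12393 that had a probe set with 1 symbol. Notch1, Notch2, Notch4, Jag1, Jag2 and Rbpj had 2 probe sets each, and the other genes 1 each.

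Notch receptors are membrane proteins that are cut when a Jagged or Delta-like ligand on a neighbouring cell binds them, and the released intracellular part enters the nucleus. There it joins RBPJ, which represses its targets without it and activates them with it. Among the best known targets are the Hes and Hey genes, which encode transcriptional repressors, and Dtx1, which encodes the ubiquitin ligase Deltex 1. In the mouse spleen, Notch2 signalling is needed for a subset of CD11c+ DCs that carry Esam and for marginal zone B cells.

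RNA was measured on 24 Affymetrix mouse arrays, 1 colour each, of CD11c+ splenic DCs taken on magnetic beads from BALB/c pups at day 14 of life. Asthma-at-risk pups were born to mothers that had been sensitized to ovalbumin (OVA) with alum and later exposed to OVA aerosol, and normal pups came from control mothers. Those called stimulated had themselves received 1 injection of 5 µg of OVA with 1 mg of alum, at day 3 by the labels (the methods give another day), and naïve pups had received none. Set 2, whose RNA was amplified with a NuGEN kit by the methods, held 5 stimulated at-risk arrays (AF123 to AF127) and 4 stimulated normal arrays (AF118 to AF121). Set 1 held 4 stimulated at-risk arrays (AF88 to AF91), 4 stimulated normal arrays (AF84 to AF87), 4 naïve at-risk arrays (AF80 to AF83) and 3 naïve normal arrays (AF76, AF77 and AF79). The set of an array follows from its number and the set sizes in the methods. There, 1 array per set had been dropped on the basis of a principal component analysis. The methods describe the arrays of a group as biological replicates. How many pups or litters stand behind an array is not stated, so p-values measure only how arrays vary. At-risk and normal pups of each comparison, and stimulated and naïve pups, form separate runs of array numbers, so neither maternal status nor allergen can be told apart from any effect of processing order.

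Values are log2 of the deposited RMA intensities, and a difference of log2 values is called a log2 fold change. The median log2 value of an array lay between 8.088 and 8.22, and the lower quartile between 4.995 and 5.093. All 10 markers of conventional DCs that were looked at, Itgax (CD11c), Flt3 and Zbtb46 among them, lay above the upper quartile on all 24 arrays. A probe set was called when its limma p, adjusted by Benjamini and Hochberg's method over all 22626 probe sets, was at most 0.05 and the higher group's linear signal was at least 25% above that of the lower group. In such bulk samples, fewer cells of a type and less RNA per cell cannot be told apart. Because the sets had been preprocessed separately, levels are compared within a set only.

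Over the 24 arrays, Notch1 ranged from 10.37 to 11.17 by its brighter probe set 1418634_at and from 7.98 to 9.52 by 1418633_at. The brighter one averaged 10.70 ± 0.14 in stimulated at-risk, 10.74 ± 0.13 in stimulated normal, 11.07 ± 0.06 in naïve at-risk and 11.10 ± 0.08 in naïve normal DCs of Set 1 (SD, n = 4, 4, 4 and 3). Notch2, by its brighter probe set 1455556_at, was the steadiest of the receptors in Set 1, with group means from 12.98 to 13.05 and no SD above 0.06. Its dimmer probe set 1451889_at had group means from 6.49 to 6.69 in that set. Notch4 varied more from array to array, and in Set 1 its probe set 1449146_at ranged from 10.45 in a naïve at-risk array to 11.78 in a stimulated normal one. The 2 Notch4 probe sets followed each other closely once group means were removed (Pearson r = 0.97 over 24 arrays, a description). The corresponding r was 0.78 for Rbpj, 0.51 for Jag2, 0.45 for Jag1, 0.37 for Notch1 and 0.29 for Notch2.

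Jag1 was seen by a brighter probe set, 1421106_at, with 6.49 to 7.17 in Set 1 and 5.07 to 5.92, not far above the lower quartile, in Set 2. It was also seen by a dim one, 1421105_at, which lay below the array's lower quartile on 22 of 24 arrays. The other 15 member probe sets were never below that quartile. Jag2 ranged from 8.34 to 9.06 (1426430_at), Dll1 from 5.86 to 7.29, and Rbpj from 10.76 to 11.59 (1448957_at). Of the targets, Hes1 ranged from 6.40 to 8.29, Hey1 from 6.34 to 7.46 and Dtx1 from 8.61 to 10.04.

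Promoter sequences are given for the 3 genes called after allergen whose windows held a match to an RBPJ or a HES motif, to set these letters beside the changes. RefSeq windows of 300 bases (GRCm38.p6), from 250 bases before to 50 after an annotated start, were at hand for 8 of the 10 genes, Hes1 and Hey1 being the other two. Both strands were searched for the RBPJ core TGGGAA and for the HES N-box CACNAG, and matches are in capitals. The Rbpj window lies at chr5:53590096-53590395 on the + strand, that of Notch1 at chr2:26503773-26504072 on the - strand, and that of Dtx1 at chr5:120711620-120711919 on the - strand.
Rbpj: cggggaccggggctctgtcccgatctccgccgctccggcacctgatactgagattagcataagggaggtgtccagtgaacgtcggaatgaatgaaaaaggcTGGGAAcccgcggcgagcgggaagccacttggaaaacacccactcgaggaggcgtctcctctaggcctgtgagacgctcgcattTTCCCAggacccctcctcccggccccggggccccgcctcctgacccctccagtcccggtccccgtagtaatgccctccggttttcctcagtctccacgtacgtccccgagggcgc
Notch1: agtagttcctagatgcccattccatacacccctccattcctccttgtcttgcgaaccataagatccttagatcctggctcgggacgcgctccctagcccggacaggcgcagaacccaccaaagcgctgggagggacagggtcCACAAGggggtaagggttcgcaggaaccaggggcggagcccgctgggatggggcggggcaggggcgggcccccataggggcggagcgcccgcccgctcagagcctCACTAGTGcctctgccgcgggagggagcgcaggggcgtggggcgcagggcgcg
Dtx1: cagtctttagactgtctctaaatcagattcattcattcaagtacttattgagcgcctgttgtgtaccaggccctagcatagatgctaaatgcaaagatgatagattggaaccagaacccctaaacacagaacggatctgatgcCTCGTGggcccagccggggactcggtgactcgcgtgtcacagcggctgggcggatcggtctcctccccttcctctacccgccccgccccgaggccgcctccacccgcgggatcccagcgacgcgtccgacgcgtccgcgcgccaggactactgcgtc
The Rbpj window held 2 RBPJ cores, 149 bases before the start on the same strand and 65 bases before it on the opposite strand, and no other member's window held one. An RBPJ core was found in 25.6% of all 32851 promoter windows of this length. An overlapping second Rbpj window shared the nearer of these matches. The Notch1 window held 3 N-boxes, of which 2 overlap at the start, and the Dtx1 window held 1. The Notch2 window and a Dll1 window also held 1 N-box each, and neither gene was called after allergen. An N-box was found in 42.5% of all windows. The windows of Notch4, Jag1 and Jag2 held neither motif. Jag2 had 63 CpG dinucleotides in its window and Notch4 had 5, against a median of 7 over all windows. A match is a run of letters and not a measured site.

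Between naïve at-risk and naïve normal DCs, which asks what maternal asthma leaves in DCs before any allergen, Hes1 alone was called. Hes1 encodes a repressor that is the classical direct target of Notch signalling. Its log2 signal was 7.54, 7.55, 7.58 and 7.52 in naïve at-risk DCs, against 8.29, 7.96 and 7.91 in naïve normal DCs. The groups did not overlap, and the at-risk arrays lay close to each other, while the normal array AF76 stood above the other two. Hes1 was 1.42-fold lower in naïve at-risk DCs, a log2 fold change of -0.50 with an SE of 0.09 (adjusted p = 0.0216, limma). The call was lost when AF80, AF81 or AF83 was left out (adjusted p = 0.0646, 0.0582 and 0.0626). It was also lost when only the 7 naïve arrays were fitted (0.199) and when all 24 arrays were (0.188). In these fits the log2 fold change stayed between -0.50 and -0.49. Over all fits with 1 array left out it ranged from -0.57 to -0.38. The study drew Hes1 in a network that it had built from these samples, so the direction is not independent evidence.

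In all, 1 of 16 member probe sets was called, against 77 of all 22626 (0.34%, with 0.239% lower). At an unadjusted p under 0.05 there were 2 member probe sets, against 15.8% of all, the second being the dim Jag1 probe set. The groups did not overlap for 3 member probe sets, against 11.1% of all probe sets. These were Hes1, the dim Jag1 probe set and Rbpj 1448957_at. Jag1 and Rbpj were higher in at-risk DCs without passing the test (adjusted p = 0.3 and 0.388). Among the receptors, the log2 fold change was -0.04 for Notch1 (95% CI -0.22 to 0.15), 0.03 for Notch2 (-0.09 to 0.14) and -0.23 for Notch4 (-0.64 to 0.18). Dtx1 had 9.63, 9.45, 9.31 and 9.34 in naïve at-risk DCs and 9.57, 9.59 and 10.04 in naïve normal DCs, with a log2 fold change of -0.30 that did not pass (SE 0.15, adjusted p = 0.354). Hey1, the other target, differed by -0.03 (95% CI -0.40 to 0.33).

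**Figure D1:**
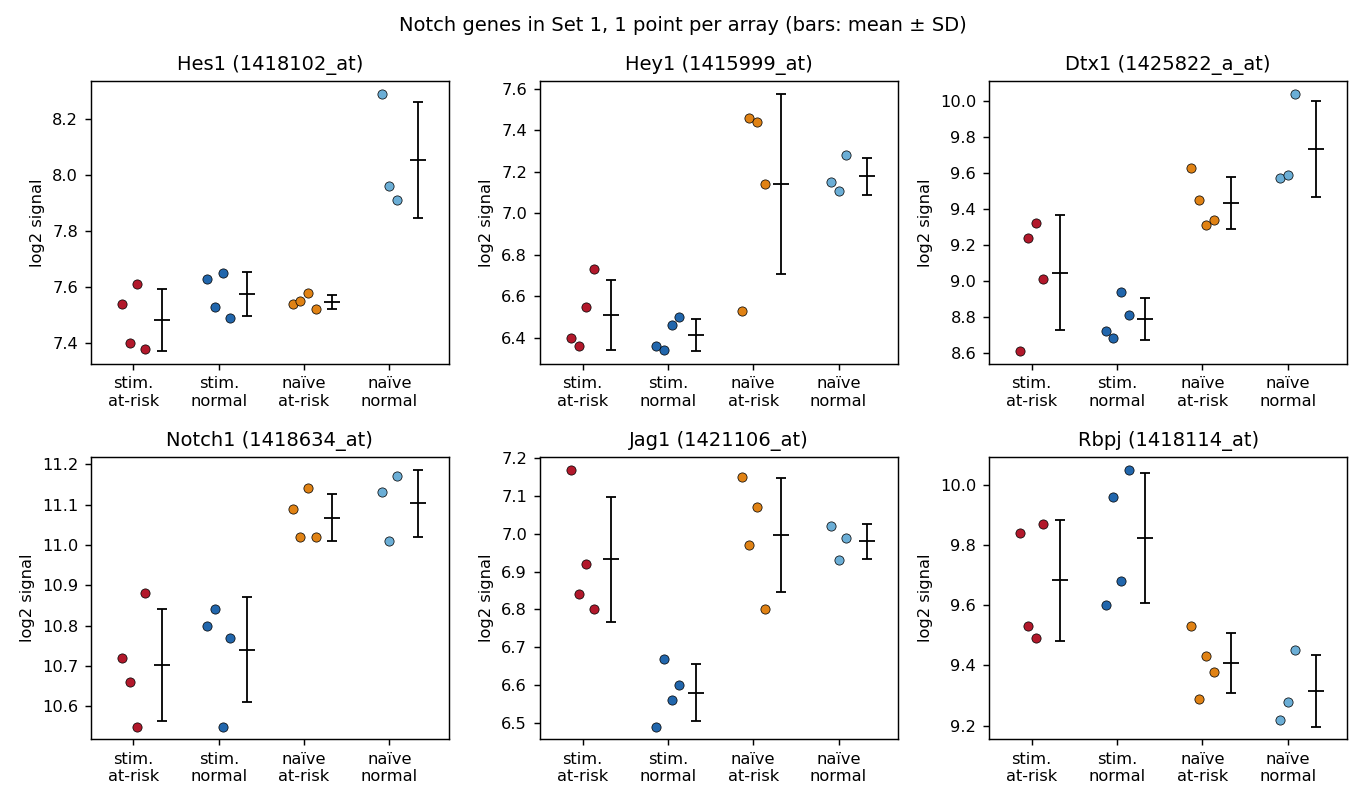
Log2 signal of Hes1, Hey1, Dtx1, Notch1, Jag1 and Rbpj on each of the 15 arrays of Set 1, with stimulated groups left of naïve groups and at-risk left of normal pups, and the mean ± SD beside each group. Hes1 stands at 7.91 to 8.29 in naïve normal DCs and between 7.38 and 7.65 in the other 3 groups.

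Other genes of the pathway were read from a list of 64, of which 53 had a probe set of their own. None of the 53 was called in naïve DCs, where 0.347% of all genes were. The smallest adjusted p-values belonged to Nrarp, a Notch target that feeds back on the Notch complex (log2 fold change -0.46, SE 0.12, adjusted p = 0.104), to Il2ra, the α chain of the IL-2 receptor (-0.28, adjusted p = 0.176), and to the deacetylase Hdac1 (-0.25, adjusted p = 0.19). Of 5 genes of Notch-dependent DCs and marginal zone B cells that had a probe set, Cr2, the complement receptor of such B cells, was 1.64-fold lower in naïve at-risk DCs (log2 fold change -0.71, adjusted p = 0.00808). Esam, Cd4, Cd1d1 and S1pr3 were not called and lay the other way, at 0.13, 0.02, 0.31 and 0.03, and the median of the 5 was 0.03. None of 7 T cell markers was called, with a median log2 fold change of -0.37 and all 7 below 0. Their summed linear signal ran from 4762 to 4984 in naïve at-risk DCs and from 6297 to 6716 in naïve normal DCs, so these sums separated the same arrays as Hes1 did. The summed signal of 6 NK cell markers did so too, with 12620 to 13871 against 14369 to 15691. None of those 6 was called (median -0.17). Sums of the other marker lists overlapped. The part of T cell and NK cell markers in the Hes1 difference was not tested.

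In stimulated DCs the same maternal comparison was made over 17 arrays with a term for set. None of the 16 member probe sets was called by limma, against 1.73% of all probe sets, and 3 had an unadjusted p under 0.05, against 17% of all. These were Hes1, Rbpj 1418114_at and Notch1 1418633_at, with log2 fold changes of -0.31 (SE 0.12, adjusted p = 0.202), -0.21 (SE 0.09, adjusted p = 0.23) and -0.15 (SE 0.06, adjusted p = 0.257).

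Hes1 had 6.40, 7.06, 7.47, 7.18 and 6.98 in stimulated at-risk DCs of Set 2 and 7.80, 7.71, 7.27 and 7.33 in stimulated normal DCs of that set. In Set 1 it had 7.54, 7.40, 7.61 and 7.38 in stimulated at-risk DCs and 7.63, 7.53, 7.65 and 7.49 in stimulated normal DCs. The groups overlapped in both sets, and the lowest array was AF123. The log2 fold change was -0.51 in Set 2 (SE 0.20, adjusted p = 0.176), and -0.36 without AF123. In Set 1 it was -0.09 (SE 0.07, adjusted p = 0.715), and none of the 16 was called there, against 0.119% of all. The maternal effect on Hes1 in stimulated DCs minus that in naïve DCs, tested within Set 1, was 0.41 (SE 0.12, adjusted p = 0.321), so a difference between these effects was not shown. For that test 4 member probe sets had an unadjusted p under 0.05, against 8.41% of all, and none was called by limma, against 0.0486% of all.

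For Notch4 and Jag2 the maternal effect in stimulated DCs differed between the sets. Notch4 encodes a receptor best known from endothelium, and Jag2 a Jagged ligand. Notch4 1449146_at had 11.53, 11.72, 11.07, 11.56 and 11.64 in stimulated at-risk DCs of Set 2, against 10.51, 10.67, 10.95 and 11.24 in stimulated normal DCs. Only AF125 of the at-risk arrays lay below a normal array there. In Set 1 the order was the other way round, with 11.08, 10.98, 11.23 and 11.01 in at-risk DCs and 11.78, 11.22, 11.59 and 11.12 in normal DCs, which overlapped. The log2 fold change was 0.66 in Set 2 (SE 0.17, adjusted p = 0.0505) and -0.35 in Set 1 (SE 0.14, adjusted p = 0.415), neither of which passed within its set. The effect in Set 2 minus that in Set 1 was 1.02 (SE 0.23, adjusted p = 0.0353, limma), which was called. The second Notch4 probe set gave 0.90 for this difference and missed the threshold (adjusted p = 0.0567).

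Jag2 1426430_at had 8.90, 8.90, 8.69, 8.74 and 8.79 in stimulated at-risk DCs of Set 2, all above the normal arrays with 8.36, 8.39, 8.35 and 8.64. In Set 1 the at-risk arrays had 8.74, 8.64, 8.63 and 8.78, and the normal arrays 8.87, 8.89, 9.05 and 8.76. The log2 fold change in Set 2 was 0.37 (SE 0.08, adjusted p = 0.0294), and this was the 1 member probe set called there, against 4.62% of all probe sets, and the 1 without overlap, against 10.1%. Without AF123 this call was lost (0.35, adjusted p = 0.0511). In Set 1 the log2 fold change was -0.19 (SE 0.07, adjusted p = 0.379). The difference between the sets was 0.56 (SE 0.11, adjusted p = 0.0141), and 0.42 by the second Jag2 probe set (adjusted p = 0.0933).

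**Figure D2:**
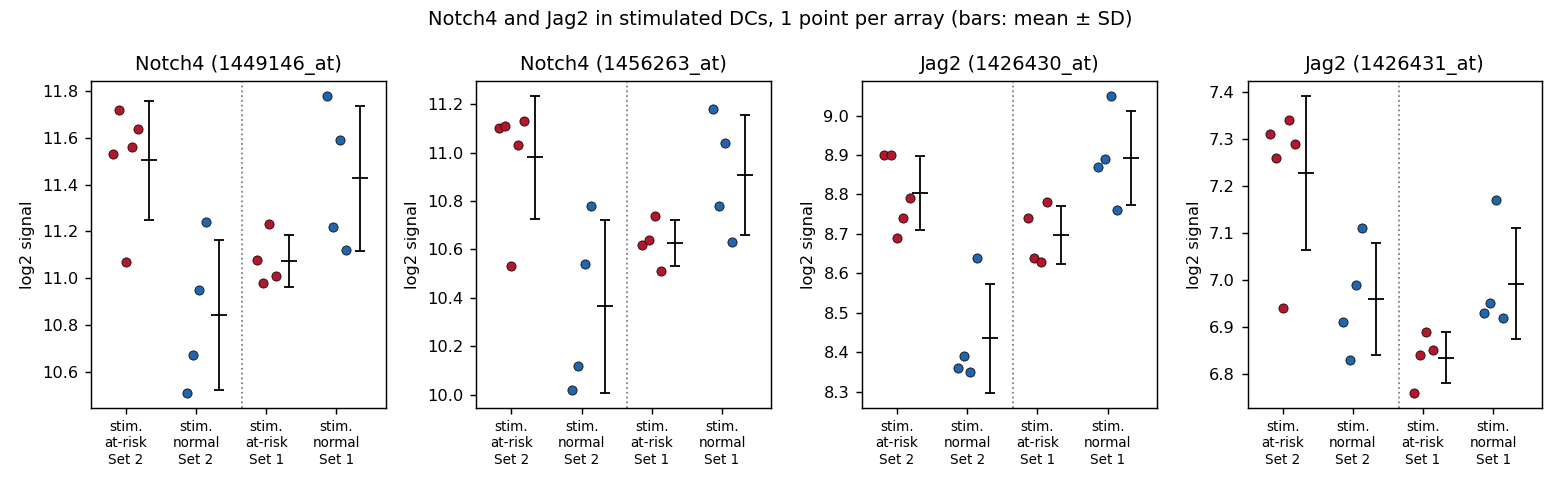
Log2 signal of both probe sets of Notch4 and of Jag2 on the 17 stimulated arrays, Set 2 left of the dotted line and Set 1 right of it, at-risk left of normal pups, with the mean ± SD beside each group. At-risk arrays average above normal ones in Set 2 and below them in Set 1 for all 4 probe sets.

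For the difference between sets, 2 of 16 member probe sets were called, against 1.79% of all probe sets (0.659% higher), and both were higher in Set 2. The Notch4 call was lost when any 1 of 10 arrays was left out (adjusted p from 0.0561 to 0.0882), and the Jag2 call when all 24 arrays were fitted (0.0749). Jag1, a ligand that shares its receptors with Jag2, had an opposite pattern that did not pass. Its probe set 1421106_at differed by -0.26 in Set 2 (SE 0.16, adjusted p = 0.35) and by 0.35 in Set 1 (SE 0.08, adjusted p = 0.187), a difference between the sets of -0.61 (adjusted p = 0.128). The dim Jag1 probe set gave 0.01 for this difference (adjusted p = 0.982). In Set 1 at-risk and normal arrays did not overlap for Jag1 1421106_at and for Jag2 1426431_at, or 2 of 16, against 6.23% of all probe sets.

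**Figure D3:**
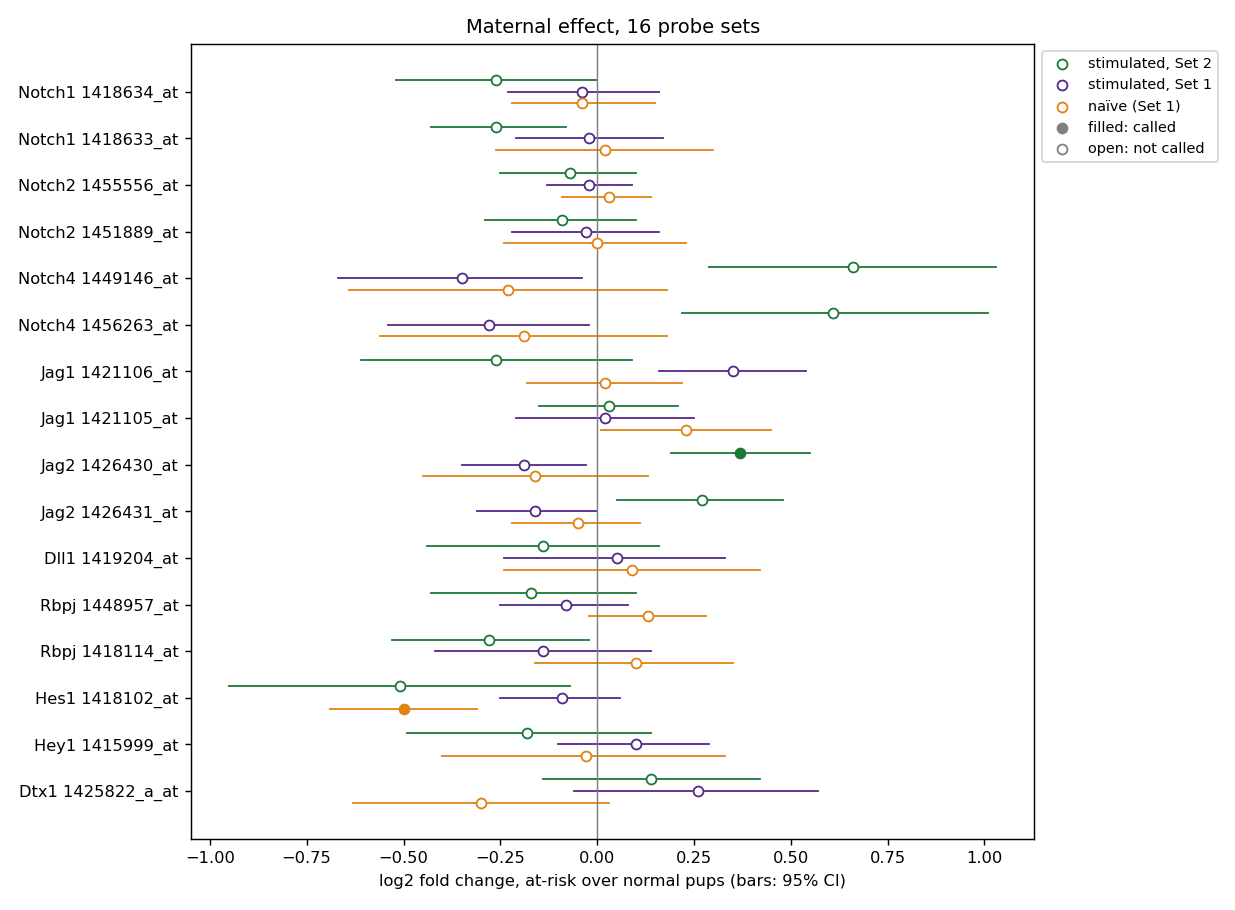
Log2 fold change of at-risk over normal pups for the 16 member probe sets, with 95% confidence intervals, in stimulated DCs of Set 2, stimulated DCs of Set 1 and naïve DCs of Set 1. Filled points mark the 2 calls, Jag2 in stimulated DCs of Set 2 at 0.37 and Hes1 in naïve DCs at -0.50.

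Markers of other cells moved with maternal status in Set 2, where 5.62% of all genes were called. All 7 platelet markers were higher in stimulated at-risk DCs of that set (median log2 fold change 2.18, summed signal from 2568 to 6491 against 865 to 1081 in normal DCs). Of 14 endothelial markers, 10 were higher (median 1.17, summed signal from 2340 to 2995 against 1628 to 2085), and 6 of 7 T cell markers were lower (median -0.68, summed signal from 1968 to 2761 against 3591 to 3773). Of 10 stromal markers, 7 were higher (median 1.19, summed signal from 3076 to 5366 against 1395 to 1641). Of 6 NK cell markers, 5 were lower (median -0.79, from 4670 to 6801 against 9406 to 9991), as were 4 of 5 plasmacytoid DC markers (median -0.49, from 10930 to 14158 against 17974 to 18694) and 3 of 9 macrophage markers (median -0.33). Higher, too, were 3 of 8 B cell markers (median 0.31) and 2 of 5 erythroid markers (median 1.10). In Set 1, where 0.153% of all genes were called, none of these 9 lists had a called member, and 1 of 7 neutrophil markers was higher. No conventional DC marker of 10 was called in either set. Median log2 fold changes in Set 1 were 0.28 for platelet, 0.55 for endothelial, 0.16 for stromal, 0.41 for erythroid and 0.06 for B cell markers. For T cell, NK cell, plasmacytoid DC and macrophage markers they were -0.25, 0.04, -0.09 and 0.17. For the difference between sets 2.15% of all genes were called. There 5 of 7 platelet, 2 of 14 endothelial and 1 of 10 stromal markers were called higher, and 4 of 9 macrophage, 2 of 6 NK cell and 2 of 5 plasmacytoid DC markers lower. Their part in the Notch4 and Jag2 differences was not tested.

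Of the 53 other pathway genes, none was called by limma in stimulated DCs over both sets, against 2.24% of all genes. The smallest adjusted p-values belonged to Cir1, a corepressor that binds RBPJ (log2 fold change 0.25, adjusted p = 0.057), to the receptor Notch3 (-0.37, adjusted p = 0.0723) and to the Hes family gene Hes5 (0.22, adjusted p = 0.0883). Notch3, which the study lists among genes chosen on these samples, ranged from 6.59 to 7.07 in stimulated at-risk DCs of Set 2 and from 7.47 to 7.57 in normal DCs of that set, without overlap. It fell by 0.69 there (adjusted p = 0.00331), while the log2 difference in Set 1 was -0.02. The difference between the sets was -0.68 (SE 0.14, adjusted p = 0.0204), which made Notch3 the 1 called gene of the list, against 2.15% of all genes. Within Set 2, 3 of the 53 were called, against 5.62% of all genes. Besides Notch3, Gata3, the transcription factor of T helper 2 cells, fell by 0.80 (adjusted p = 0.0303), and Cir1 was higher by 0.40 (adjusted p = 0.0437). Without AF123 the Cir1 call was lost (0.34, adjusted p = 0.0522), and Nrarp was called (-0.46, adjusted p = 0.0436). For the difference between sets, Cir1 (0.32, adjusted p = 0.182) and Gata3 (-0.75, adjusted p = 0.184) came next after Notch3. For the stimulated minus naïve difference of maternal effects the smallest adjusted p-values were those of Nrarp (0.51, adjusted p = 0.342), Dll4 (0.31, adjusted p = 0.492) and Hes6 (-0.38, adjusted p = 0.53).

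The allergen comparison set stimulated against naïve DCs and could be made in Set 1 alone. It shares its naïve normal arrays with the naïve comparison above and is not independent of it. In at-risk pups 3 of 16 member probe sets were called, all lower, against 7.88% of all probe sets (3.46% lower). They were the 2 Notch1 probe sets and Hey1. An unadjusted p under 0.05 was found for 8, against 20.5% of all, and the groups did not overlap for 3, against 17.7% of all probe sets. In normal pups 7 of 16 were called, against 11.5% of all probe sets, with 6 lower (background 5.76%) and 1 higher (background 5.73%). There 10 had an unadjusted p under 0.05, against 27.8% of all, and for 8 the groups did not overlap, against 21.9%. By at least 1 probe set each, the genes that fell in normal pups were a receptor, a ligand and all 3 targets, and the one that rose was Rbpj.

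In at-risk pups Notch1 1418634_at had 10.72, 10.66, 10.55 and 10.88 in stimulated DCs, against 11.09, 11.02, 11.14 and 11.02 in naïve DCs. All stimulated arrays lay below all naïve ones. It fell there by 0.36 (SE 0.08, adjusted p = 0.0078) on the log2 scale, and its second probe set by 0.48 (SE 0.12, adjusted p = 0.0204). In normal pups it had 10.80, 10.84, 10.55 and 10.77 in stimulated DCs and 11.13, 11.01 and 11.17 in naïve DCs, again without overlap. The brighter probe set fell by 0.36 (SE 0.09, adjusted p = 0.0104), and the second by 0.44 (SE 0.13, adjusted p = 0.0372). Leaving out AF90 put the brighter probe set under the fold threshold in at-risk pups (-0.31), and leaving out AF86 did so in normal pups (-0.30). The second probe set lost its call in at-risk pups on leaving out each of 5 arrays in turn (adjusted p between 0.0526 and 0.06), and in normal pups without AF76, AF86 or AF87 (0.142, 0.103 and 0.0891). Without AF76 its log2 fold change in normal pups was -0.25. Both Notch1 calls in normal pups were also lost when only the compared arrays were fitted (adjusted p = 0.0501 and 0.165).

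Notch2 was not called in either group of pups, with log2 fold changes of 0.02 in at-risk pups (95% CI -0.09 to 0.13) and 0.07 in normal pups (95% CI -0.05 to 0.19) for the brighter probe set. Notch4 1449146_at was not called either, at 0.35 in at-risk pups (adjusted p = 0.304) and 0.47 in normal pups (adjusted p = 0.125). Without the naïve normal array AF79 the value in normal pups was 0.68 and was called (adjusted p = 0.0299).

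In at-risk pups Jag1 1421106_at had 7.17, 6.84, 6.92 and 6.80 in stimulated DCs and 7.15, 6.97, 7.07 and 6.80 in naïve DCs, which overlapped (log2 fold change -0.07, 95% CI -0.26 to 0.12). In normal pups it had 6.49, 6.67, 6.56 and 6.60 in stimulated DCs and 7.02, 6.93 and 6.99 in naïve DCs. There the groups were apart, and this probe set fell by 0.40 (SE 0.10, adjusted p = 0.011). The call was lost when all 24 arrays were fitted (adjusted p = 0.0642). Its allergen effect in at-risk pups minus that in normal pups was 0.33 (SE 0.13, adjusted p = 0.495), so a difference was not shown. The dim Jag1 probe set was not called, at -0.23 in at-risk pups (adjusted p = 0.187) and -0.02 in normal pups (adjusted p = 0.928). Jag2 1426431_at passed the p threshold in normal pups with a fold of 1.23, under the fold threshold (log2 fold change 0.30, adjusted p = 0.0158). Dll1, a Delta-like ligand, was not called, at -0.33 in at-risk pups (adjusted p = 0.194) and -0.29 in normal pups (adjusted p = 0.239).

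Rbpj, whose window with 2 RBPJ cores is printed above, had 9.84, 9.53, 9.49 and 9.87 by probe set 1418114_at in stimulated DCs of at-risk pups and 9.53, 9.29, 9.43 and 9.38 in naïve DCs, and the difference of 0.27 did not pass (SE 0.11, adjusted p = 0.169). In normal pups the values were 9.60, 9.96, 9.68 and 10.05 in stimulated DCs and 9.22, 9.28 and 9.45 in naïve DCs, without overlap. It rose 1.42-fold there, or by 0.51 on a log2 scale (SE 0.12, adjusted p = 0.0113). The effect in at-risk pups minus that in normal pups was -0.23 (SE 0.17, adjusted p = 0.724), so a difference was not shown. The second probe set had 0.31 in normal pups (adjusted p = 0.0092) with a fold of 1.24, just under the threshold.

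Hes1 had a stimulated minus naïve difference of -0.07 in at-risk pups (95% CI -0.24 to 0.11). In normal pups it fell by 0.48 (SE 0.09, adjusted p = 0.00195), and all 4 stimulated arrays lay below the 3 naïve ones. The call was lost when all 24 arrays were fitted (adjusted p = 0.0614). Ordered by mean within Set 1, Hes1 was 7.48 ± 0.11 in stimulated at-risk, 7.55 ± 0.03 in naïve at-risk, 7.57 ± 0.08 in stimulated normal and 8.05 ± 0.21 in naïve normal DCs. The ranges of the 3 lower groups overlapped each other, and that of naïve normal DCs overlapped none.

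Hey1, a repressor of the family next to Hes, had 6.40, 6.36, 6.55 and 6.73 in stimulated DCs of at-risk pups and 6.53, 7.46, 7.44 and 7.14 in naïve DCs. The naïve array AF80 lay within the stimulated range, and Hey1 fell by 0.63 (SE 0.16, adjusted p = 0.0182). This call was lost without AF81, AF82, AF88 or AF89 (adjusted p from 0.0576 to 0.0657) and when only the compared arrays were fitted (0.0653). In normal pups it had 6.36, 6.34, 6.46 and 6.50 in stimulated DCs, against 7.15, 7.11 and 7.28 in naïve DCs. There it fell by 0.76 (SE 0.17, adjusted p = 0.00741), without overlap.

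Dtx1 had 8.61, 9.24, 9.32 and 9.01 in stimulated DCs of at-risk pups and 9.63, 9.45, 9.31 and 9.34 in naïve DCs. The groups met at AF90 and AF82, and the log2 fold change of -0.39 did not pass (SE 0.14, adjusted p = 0.119). In normal pups it had 8.72, 8.68, 8.94 and 8.81 in stimulated DCs and 9.57, 9.59 and 10.04 in naïve DCs. It was 1.92-fold lower after allergen there, with no overlap and a log2 difference of -0.94 (SE 0.15, adjusted p = 0.00076). The allergen effect in at-risk pups minus that in normal pups, which equals the difference of the maternal effects, was 0.56 (SE 0.21, adjusted p = 0.485) and so was not shown to differ.

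**Figure D4:**
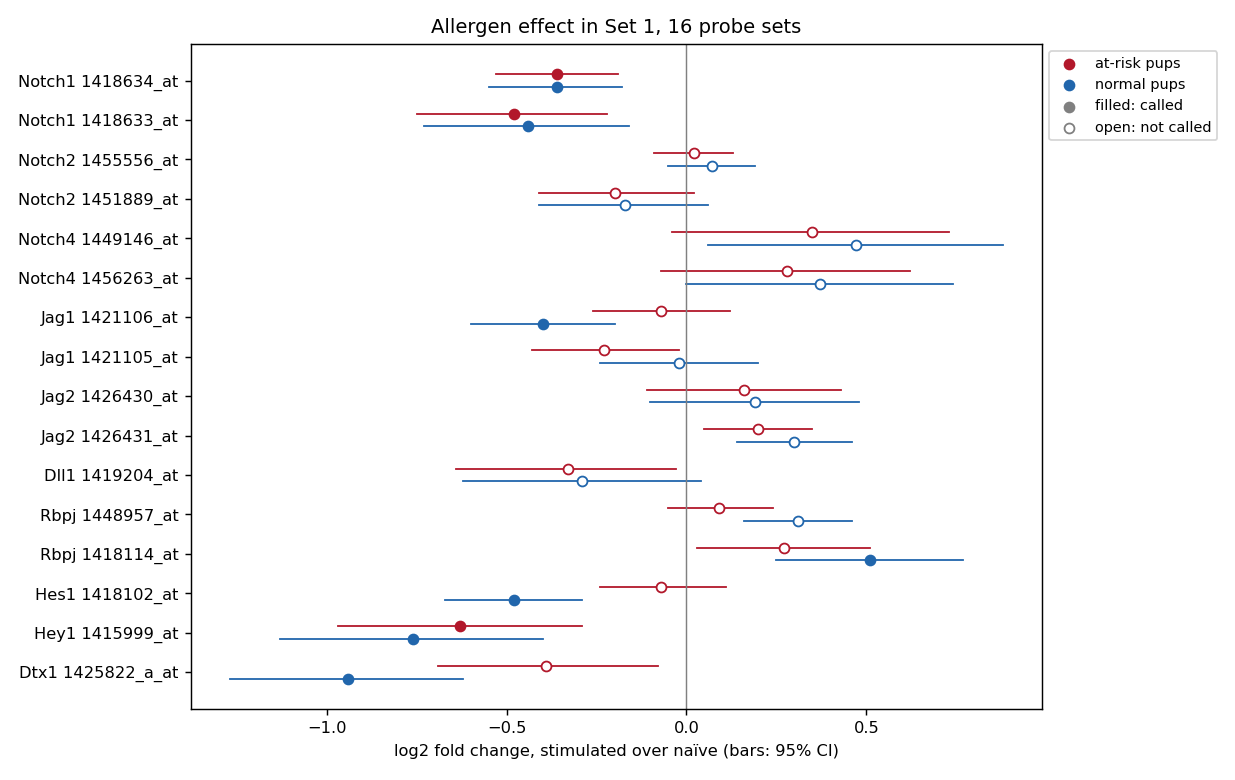
Log2 fold change of stimulated over naïve DCs for the 16 member probe sets in at-risk and in normal pups of Set 1, with 95% confidence intervals and filled points for calls. Notch1 lies at -0.36 in both groups of pups by its brighter probe set, and Dtx1 at -0.39 in at-risk and -0.94 in normal pups.

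Among the 53 other pathway genes, 4 were called in at-risk pups, against 8.38% of all genes, all of them lower (background 3.4%). In normal pups 8 were called, against 11.8% of all genes, with 2 higher (background 5.45%) and 6 lower (background 6.33%). Of 5 other receptors and ligands, Notch3 fell by 0.63 in at-risk pups (adjusted p = 0.000856), and in normal pups it fell by 0.58 and the ligand Dll4 by 0.51 (adjusted p = 0.00256 and 0.00111). Of 12 other targets, 3 fell in at-risk pups and 4 in normal pups. Gata3 fell by 1.14 in at-risk pups and by 1.20 in normal pups, where it ranged from 5.34 to 6.22 in stimulated and from 6.54 to 7.33 in naïve DCs. Il2ra fell by 0.68 in at-risk pups and by 0.97 in normal pups. The survival gene Bcl2 fell by 0.62 in at-risk pups and by 0.64 in normal pups. For Nrarp the difference was -0.24 in at-risk pups (adjusted p = 0.212), while in normal pups it fell by 0.76 (adjusted p = 0.000466). Hes6, a Hes family member, rose by 0.41 in normal pups, as did the corepressor Ctbp2 by 0.32. No gene of receptor processing (7 measured), glycosylation (5), endocytosis and turnover (7) or coactivation (6) was called in either group of pups.

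**Figure D5:**
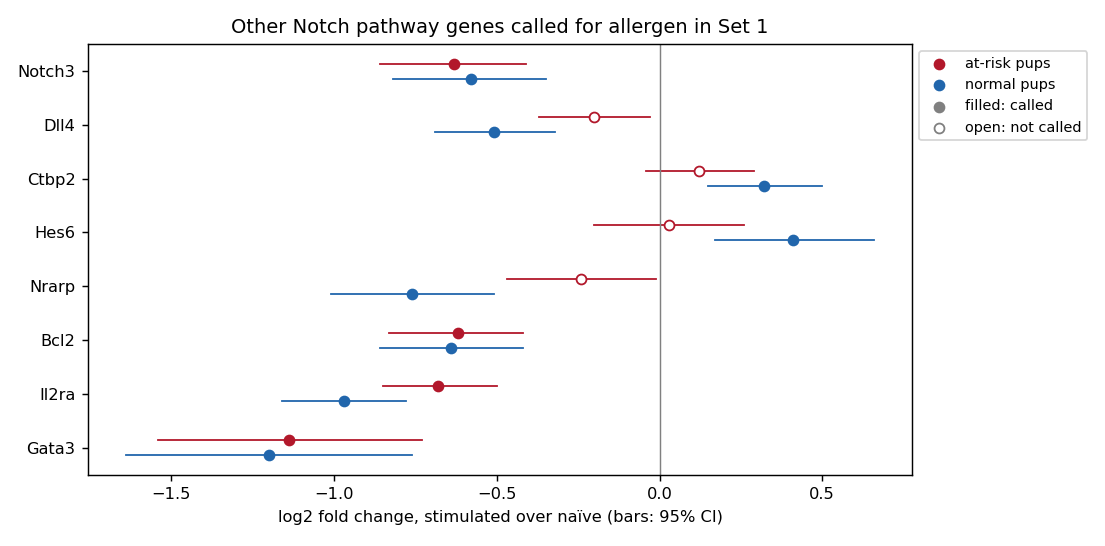
Log2 fold change of stimulated over naïve DCs, with 95% confidence intervals, for the 8 other Notch pathway genes called in either group of pups of Set 1. Gata3 lies lowest, at -1.14 in at-risk and -1.20 in normal pups.

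Markers of T cells, in which Notch1, Notch3, Gata3, Il2ra and Bcl2 are also expressed, moved with these falls. Of all genes, 8.38% were called in at-risk and 11.8% in normal pups. In at-risk pups 6 of 7 T cell markers were lower in stimulated than in naïve DCs (median log2 fold change -1.10, summed signal from 2028 to 2385 against 4762 to 4984), and in normal pups all 7 were (median -1.38, from 1669 to 4896 against 6297 to 6716). All 7 platelet markers were higher, with medians of 4.27 in at-risk pups and 3.84 in normal pups. Their summed signal was 9469 to 16897 in stimulated against 518 to 695 in naïve at-risk DCs, and 8941 to 12010 in stimulated against 539 to 609 in naïve normal DCs. Of 6 NK cell markers, 4 were lower in at-risk pups (median -0.91, summed signal from 7382 to 8472 against 12620 to 13871) and 4 in normal pups (median -1.27, from 5522 to 13427 against 14369 to 15691). All 5 erythroid markers were higher, with medians of 1.31 in at-risk and 1.01 in normal pups. Of 14 endothelial markers, 8 were higher and 1 lower in at-risk pups (median 0.76), and 3 higher and 1 lower in normal pups (median 0.43). Of 9 macrophage markers, 4 were lower in at-risk pups and 5 in normal pups, and of 5 plasmacytoid DC markers 2 were lower in each. Of 7 neutrophil markers, 2 were higher in at-risk pups, and 1 was higher and 4 lower in normal pups. Of 10 stromal markers, none was called in at-risk pups and 2 were lower in normal pups. Of 10 conventional DC markers, none was called in at-risk pups and 1 was higher in normal pups, and no B cell marker of 8 was called in either. Of the 5 genes of Notch-dependent DCs and marginal zone B cells, 1 was higher and 1 lower in at-risk pups, and 1 higher and 2 lower in normal pups. Their part in the Notch gene changes was not tested.

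Genes whose array-to-array pattern was most like that of a member were read from all 24 arrays after the 6 group means had been removed. For Hes1 these were Kat6b, Kdm3b and Ube2d1 (Pearson r = 0.94 each), for Notch2 Xiap and Baz2a (0.90 each) and Zbtb46 (0.89), and for Rbpj Coa3 and Prcp (0.93 each) and Acot8 (0.92). Notch4 was most like Qars (0.93), Hgs and Dnaaf1 (0.90 each), Jag2 like Jpt1 (0.88), Ppef2 and Commd9 (0.87 each), and Dtx1 like Ryr3 (0.90), Ifih1 (0.87) and Abcb1a (0.86). Hey1 was most like Ccl24 (0.88), Tiprl (0.85) and Tmem141 (0.81), and Dll1 like Septin11 (0.84), P2ry12 (0.79) and Efnb2 (0.78). Notch1 was most like Septin1 and Asb18 (0.82 each) and S1pr5 (0.78), and Jag1 like C920021L13Rik (0.78), Kif2a and Nrip3 (0.74 each). With only the means of the 2 sets removed, so that group differences count too, Hes1 was most like Cirbp (0.91), Mef2a (0.89) and Rbm39 (0.88). Called members most like other genes on that scale were Notch4, with Ltbp2 (0.94), Unc119b and Fgd2 (0.93 each), and Dtx1, with Ryr3 (0.94), Itln1 and Ifih1 (0.92 each). Hey1 again had Ccl24 first (0.93), then Pdlim4 (0.87) and Ifi27l2a (0.85). Jag2 had Fanca (0.91), Hebp2 (0.89) and Serpinb8 (0.88), Rbpj had Vhl (0.91), Zbtb46 and Ammecr1l (0.89 each), Notch1 had Chdh and S1pr5 (0.88 each) and Klk1 (0.87), and Jag1 had S100a8 (0.76), Trem3 and S100a9 (0.73 each). Among the 45 pairs of members, r with group means removed ran from -0.65 for Dll1 and Dtx1 to 0.81 for Hes1 and Notch2. The next highest were Hes1 with Rbpj (0.70), and Notch4 with Jag2 and Notch2 with Rbpj (0.64 each), and the next lowest was Notch4 with Rbpj (-0.58). The array AF123 of Set 2 had the lowest value of all 24 arrays for Hes1 (6.40), Notch2 (12.51) and Rbpj (10.76). No r was computed without this array. These points share arrays, pups and normalization.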

How the data were processed

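RNA of CD11c+ splenic DCs was measured on 24 arrays in 6 groups. The authors processed the arrays with RMA, with no version stated, and deposited linear intensities, 1 for each probe set. The methods describe preprocessing of each set on its own, with a custom probe set definition based on RefSeq. The deposited rows are Affymetrix's own probe sets, so whether these values were preprocessed by set is not known. Log2 was taken with no pseudocount and no further normalization. The table had 0 columns that belong to no sample. The 64 control probe sets were left out. The platform annotation gave exactly 1 symbol to 20380 of the remaining 22626 probe sets, several to 691 and none to 1555, and names were taken from the first kind only. The precision is limited by the number of arrays, 3 to 5 per group, with a median SD within a group of 0.1024 to 0.1525 on the log2 scale.

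All probe sets entered the limma fits (version 3.58.1, under R 4.3.3, with lmFit then eBayes). Sequences were searched with Python 3.11.15 and pandas 2.3.3, and plots drawn with matplotlib 3.10.9. For the naïve and the allergen comparisons, and for their difference, each of the 4 groups of Set 1 had its own mean over 15 arrays. For stimulated DCs, maternal status and set were added over 17 arrays, and their interaction gave the difference between sets. Calls needed an adjusted p (Benjamini-Hochberg) of at most 0.05 and a signal at least 25% above that of the lower group. The fit was also run on simulated data with independent normal noise and planted changes. Those data held no effects of set or cell type, so they cannot show how the fit handles such effects.

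The members, the pathway list and the marker lists were chosen with earlier results of these data known. Named were all members, every other pathway gene called in a comparison and the 3 with the smallest adjusted p, and the 3 genes most like each member, once with group means removed and, for called members, once with set means removed. Where a gene had several probe sets, the brightest stood for it. Each comparison was also run on all 24 arrays, on the compared groups alone, after quantile normalization, without the dimmest probe sets (below percentile 40), with no fold threshold, with array weights and without each array. Stimulated DCs were also compared with no set term, with set as a random block and in each set alone. Set 2 without AF123 was chosen after seeing the data.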

Additional observations from a re-analysis of the deposited data

Results flagged for a closer look

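Within groups of 4 or 5 arrays, 80 were searched for an array far from the others, of which chance marks about 5%, and 7 were found. In stimulated at-risk DCs of Set 2, AF125 was low in 3 of them, with 11.07 for Notch4 1449146_at where the others had 11.53 to 11.72, with 10.53 for Notch4 1456263_at where the others had 11.03 to 11.13, and with 6.94 for Jag2 1426431_at where the others had 7.26 to 7.34. AF124 of the same group was high in both Notch1 probe sets, with 10.84 against 10.37 to 10.48 and 8.30 against 7.98 to 8.07. In stimulated normal DCs, AF121 of Set 2 was high for Jag2 1426430_at (8.64, the others 8.35 to 8.39) and AF86 of Set 1 for Jag2 1426431_at (7.17, the others 6.92 to 6.95).

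The maternal effect in stimulated DCs differed between the sets by an interaction test for Notch4 (1.02) and Jag2 (0.56), both higher in Set 2.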

How the results depend on the processing

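Of 2082 recomputed log2 fold changes of members, 35 lost their call and 22 gained one. None that was called before or after recomputing changed sign. Uncalled ones could: Notch1 1418633_at, at 0.02 in naïve DCs, ran from -0.14 to 0.22 with 1 array left out. In naïve DCs the count of member probe sets called was 0, against 1, with all 24 arrays or only the compared groups in the fit, and 0 to 1 with 1 array left out. In stimulated DCs it was 1, against 0, in Set 2 alone. After allergen it ranged from 1 to 3 in at-risk and from 5 to 10 in normal pups with 1 array left out, and was 11, against 7, in normal pups with array weights. For the difference between sets it was 1 with all 24 arrays and 5 with array weights, against 2, and 1 to 5 with 1 array left out.

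Over all probe sets, naïve DCs had 77 calls, or 0.34%, against 0.552% with all arrays, 12 calls with only the compared groups and 44 to 269 with 1 array left out. Stimulated DCs had 391 calls, or 1.73%, against 0.535% without a set term, and against 726 calls with all arrays, 242 without dim probe sets, 1045 in Set 2, 998 in Set 2 without AF123, 27 in Set 1 and 139 to 578 with 1 array left out. The difference of maternal effects had 11, against 21 without dim probe sets, 42 with array weights and 1 to 30 with 1 array left out, and the difference between sets 404, against 2454 with array weights and 204 to 989 with 1 array left out. The causes were not tested. The labels give no litter or mother that would link arrays across groups, so no paired analysis was made.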
